A study of Mus musculus with 28 samples.

Results

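This is a description of 44 lysosomal genes in hippocampal microglia. They are 16 genes of the V-ATPase (8 of the V1 sector, 6 of the V0 sector and 2 accessory subunits), 21 genes of hydrolases and other soluble lysosomal proteins, 6 genes of lysosomal membrane proteins and the transcription factor gene *Tfeb*. The genes were taken by name as lysosomal genes other than cathepsins, and all 44 are among the 48587 genes of the count table. Every 1 of the 44 passed the filter on low counts that left 15298 genes for testing. Each of the 28 libraries holds the RNA of viable CD11b+CD45low microglia sorted from the hippocampus of 1 mouse. The mice were male, on the C57BL/6J background and 16 weeks old. They were either heterozygous 5xFAD mice, which carry human transgenes with familial Alzheimer's disease mutations under the neuronal Thy-1 promoter, or non-transgenic WT littermates. Mice of both genotypes were kept under specific pathogen-free (SPF) conditions, were germ-free (GF), or were SPF mice given the antibiotics vancomycin, cefoxitin, gentamicin and metronidazole in drinking water for 8 weeks (ABX). Among WT mice 5 were SPF, 4 GF and 5 ABX, and among 5xFAD mice 3 were SPF, 5 GF and 6 ABX. GF mice came from a facility in Bern and the rest from Freiburg, and germ-free status and facility cannot be told apart.

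Lysosomes are the acidic organelles in which phagocytic cells such as microglia digest what they take up. Their acid comes from the V-ATPase, a proton pump whose cytosolic V1 sector hydrolyses ATP and whose membrane V0 sector carries protons into the lumen. Soluble hydrolases then cleave sugars, sulfates, lipids and peptides, membrane proteins protect the lysosome and move ions and lipids across it, and TFEB is a transcription factor that activates many of these genes by binding an E-box-like motif in their promoters.

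Library totals ranged from 14441610 to 29977395 reads. The summed level of 8 microglial markers lay between 41910 and 48790 CPM (read counts scaled to library size by TMM) in WT mice and between 30190 and 39660 CPM in 5xFAD mice, and no marker was at 0. The summed level of 5 neutrophil markers was 48.6 to 193 CPM in SPF 5xFAD mice and 0 to 105 CPM in ABX 5xFAD mice, and at most 0.177 CPM in the other groups. The sum of 6 markers of border-associated macrophages was 27.3 to 186 CPM in ABX 5xFAD mice and 3.40 to 54.7 CPM in the other 5 groups. *S100a8*, *Ly6g* and *Retnlg* were at 0 in all WT groups, as *Cd163* and *Lyve1* were in SPF and ABX WT mice, and the sums of T cell, B cell and erythrocyte markers were at most 0.590 CPM. Astrocyte markers summed to 155 to 189 CPM in GF 5xFAD mice and 202 to 327 CPM in the other groups, endothelial markers to 8.12 to 21.4 CPM in GF 5xFAD and 27.4 to 35.3 CPM in GF WT mice, and monocyte markers to 10.3 to 51.9 CPM in ABX 5xFAD and 2.08 to 9.05 CPM in ABX WT mice. *Slc1a3* made up most of the astrocyte sum, at 151 to 324 CPM over all mice. *Aqp4*, *Gfap* and *Aldoc* reached at most 2.56, 5.265 and 6.789 CPM. The 50 most abundant genes took 26.5 to 28.6 percent of the reads in GF 5xFAD mice, 22.6 to 24.9 percent in GF WT and 23.6 to 25.8 percent in SPF 5xFAD mice, and mitochondrial genes took 0.168 to 0.290 percent in GF 5xFAD, 0.111 to 0.147 percent in GF WT and 0.283 to 0.425 percent in SPF 5xFAD mice. These measures move with a genotype or housing comparison, and their part in the results was not tested. Mouse FAD_GF_201 is a 5xFAD mouse by title and genotype and a WT mouse by description. It was kept as a GF 5xFAD mouse by title and genotype, and counts without it are given below. Sample descriptions give a number with housing and genotype for all GF mice and 5 ABX 5xFAD mice, and a number with the mouse number for the others. The latter were split by the length of the mouse number. It has 3 digits in the SPF and ABX WT mice and more in the SPF 5xFAD mice and FAD_ABX_1151. That makes 3 styles, and the labels do not name them as batches. Genotypes under GF conditions were therefore compared within 1 style. For 5xFAD against WT under SPF and ABX conditions, for GF against SPF mice of both genotypes and for ABX against GF WT mice, style and group cannot be told apart, and of the ABX 5xFAD mice 1 shares its style with the SPF 5xFAD mice. Under SPF conditions the styles of the genotypes differ in the length of the mouse number alone.

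In microglia from 5xFAD mice, 19 of the 44 genes under SPF, 30 under GF and 27 under ABX conditions were expressed at higher levels than in microglia from WT mice. The 44 genes took 1.71 to 1.95 percent of the reads in the 14 WT mice and 2.30 to 2.88 percent in the 14 5xFAD mice, so that the genotypes did not overlap. The mean log2 CPM of the 44 genes lay in WT mice at 7.22 to 7.37 under SPF, at 7.34 to 7.403 under GF and at 7.22 to 7.27 under ABX conditions. In 5xFAD mice it was 7.66 to 7.73 under SPF, 7.84 to 8.04 under GF and 7.61 to 7.83 under ABX conditions. No WT mouse reached the lowest 5xFAD mouse, the 3 SPF 5xFAD mice lay within the range of the ABX 5xFAD mice, and all 5 GF 5xFAD mice lay above every other mouse. In the quasi-likelihood test of edgeR, with Benjamini-Hochberg adjustment over all genes and a threshold of 0.05, 19 genes rose and 0 fell in SPF 5xFAD compared to SPF WT mice, where 4.57 percent of all genes were called (3.73 percent higher, 0.837 percent lower). In GF mice 30 rose and 1 fell, where 15.6 percent of all genes were called (9.43 percent higher, 6.2 percent lower). In ABX mice 27 rose and 0 fell, where 14.4 percent were called (9.45 percent higher, 4.98 percent lower). Over the 44 genes the median log2 fold change reached 0.31 under SPF, 0.48 under GF and 0.35 under ABX conditions, compared to -0.03, -0.03 and -0.01 for all genes tested. In sorted bulk RNA, fewer cells of a type and less RNA per cell cannot be told apart. An F test over the 6 groups called 35 of the 44 genes, where it called 33.2 percent of all genes.

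**Figure D1:**
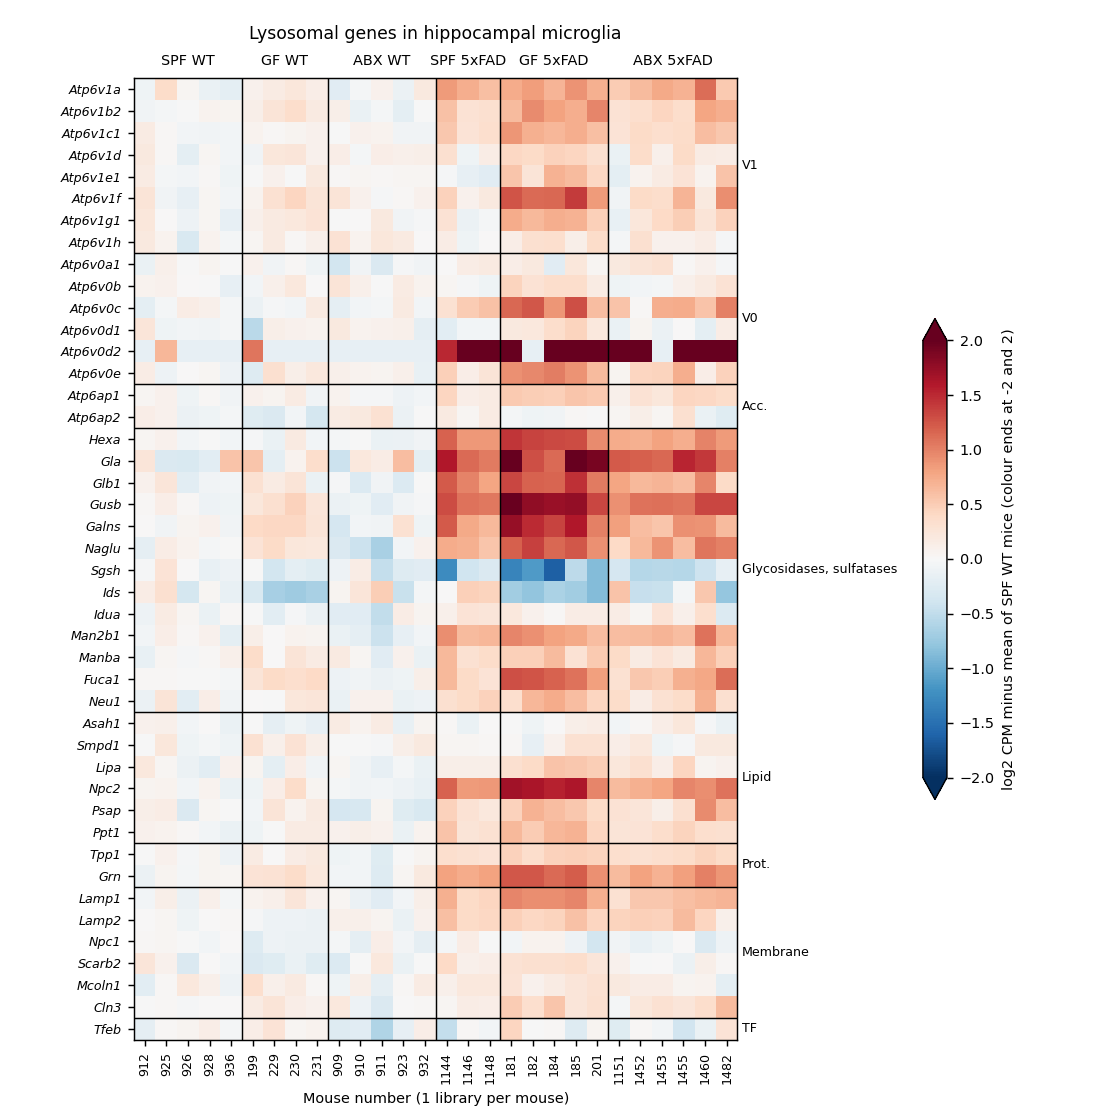
Heatmap of the 44 genes (rows, grouped by role) in the 28 mice (columns, grouped by housing and genotype). Colour gives log2 CPM minus the mean of the 5 SPF WT mice, and the strongest reds stand in the 5xFAD columns, above all in GF 5xFAD mice, while *Sgsh* and *Ids* are blue there.

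The 3 comparisons of 5xFAD with WT mice share no mice, but they come from 1 model with a common estimate of the spread. The share of all genes called in all 3 was not counted, and it can be at most the 4.57 percent called under SPF conditions. In edgeR 18 genes were called in all 3 of them, each as a rise: *Atp6v1a*, *Atp6v1b2*, *Atp6v1c1*, *Atp6v0d2*, *Hexa*, *Gla*, *Glb1*, *Gusb*, *Galns*, *Naglu*, *Man2b1*, *Fuca1*, *Npc2*, *Ppt1*, *Tpp1*, *Grn*, *Lamp1* and *Lamp2*. A further 6 were called in GF and ABX mice, 7 in GF mice alone, 2 in ABX mice alone and 1, *Manba*, in SPF and ABX mice. A gene called under 1 housing and not another is not shown to differ between them, and the tests of that difference are given below. The remaining 10 genes, *Atp6v1d*, *Atp6v1h*, *Atp6ap2*, *Ids*, *Idua*, *Asah1*, *Smpd1*, *Npc1*, *Mcoln1* and *Tfeb*, passed in none of the 3 in edgeR. Of these 10, DESeq2 called *Atp6v1d* in GF mice and voomWithQualityWeights called *Idua* in ABX mice, and with GC content offsets *Atp6ap2* was called in GF mice.

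*Tfeb* itself did not pass any test. Its level was 48.6, 55.7, 57.4, 60.2 and 53.7 CPM in the SPF WT mice and 39.3, 56.1 and 52.6 CPM in the SPF 5xFAD mice. Under GF conditions WT mice had 60.4, 66.3, 56.7 and 57.7 CPM and 5xFAD mice 73.7, 54.4, 55.7, 46.1 and 57.0 CPM. Under ABX conditions WT mice had 46.2, 46.9, 36.3, 48.9 and 60.4 CPM, and 5xFAD mice ranged from 42.1 to 66.2 CPM with a median of 51.5 CPM. The genotypes overlapped under each housing, with log2 fold changes of -0.16 ± 0.15 (SE), -0.07 ± 0.14 and 0.13 ± 0.13 under SPF, GF and ABX conditions (edgeR, adjusted p = 0.778, 0.798 and 0.573). The activity of TFEB is known to be set largely by its phosphorylation and place in the cell, which these data do not measure.

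The promoters of 36 of the 44 genes (250 bases before to 50 after the start, RefSeq on GRCm38.p6) were searched on both strands for 4 motifs. CACGTG, the E-box core, was found in 11 of the 36 genes (30.6 percent) and in 8.09 percent of all 27025 genes with a promoter. TCACGTGA, which holds CACGTG, was found in 6 of the 36 (16.7 percent) and in 1.12 percent of all genes. The full palindromic CLEAR motif, which holds both, was found in *Cln3* alone (2.78 percent, and 0.37 percent of all genes), and TCACATGA in 5 genes (13.9 percent, and 1.15 percent of all genes), *Atp6v0c*, *Gla*, *Ppt1*, *Tpp1* and *Grn*. The stretches around TCACGTGA are shown because TCACGTGA lies within the motif that TFEB is known to bind, with the 8 bases in capitals, 5′ to 3′ on the strand of the gene:
*Atp6v1a*, chr16:44139358-44139417, minus strand: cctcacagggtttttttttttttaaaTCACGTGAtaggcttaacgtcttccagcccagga
*Atp6v0d1*, chr8:105566050-105566079, minus strand: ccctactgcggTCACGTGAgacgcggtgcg
*Atp6v0e*, chr17:26676387-26676416, plus strand: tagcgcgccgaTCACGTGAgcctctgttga
*Gla*, first site, chrX:134601200-134601255, minus strand: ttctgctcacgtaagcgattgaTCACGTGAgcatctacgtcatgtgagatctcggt
*Gla*, second site, chrX:134601167-134601226, minus strand: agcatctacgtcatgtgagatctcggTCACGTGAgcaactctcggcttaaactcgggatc
*Mcoln1*, chr8:3500447-3500506, plus strand: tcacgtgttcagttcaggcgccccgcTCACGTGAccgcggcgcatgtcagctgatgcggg
*Cln3*, chr7:126583325-126583384, minus strand: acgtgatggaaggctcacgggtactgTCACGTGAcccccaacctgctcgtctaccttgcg

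Of these 6 genes, *Gla* and *Atp6v1a* rose in 5xFAD mice under all 3 housings, *Atp6v0e* rose in GF and ABX mice, *Atp6v0d1* in GF mice and *Cln3* in ABX mice, and *Mcoln1* was called in none. The other 5 genes with CACGTG were *Atp6v0b*, *Glb1*, *Naglu*, *Sgsh* and *Lamp1*. In edgeR *Glb1*, *Naglu* and *Lamp1* rose under all 3 housings, *Atp6v0b* rose in GF mice alone and *Sgsh* fell in GF mice. *Gusb*, *Hexa* and *Npc2*, which rose under all 3 as well, held none of the 4 motifs in this window. A match of letters is a description and not a measured binding site.

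Of the 16 V-ATPase genes, 4 rose in SPF, 12 in GF and 8 in ABX 5xFAD mice compared to WT mice in edgeR, and none fell. In edgeR with GC content offsets *Atp6v0b* was called lower in ABX mice (-0.22, adjusted p = 0.0218, and -0.05 without the offsets). In the V1 sector, the catalytic A subunit gene *Atp6v1a*, the B2 subunit gene *Atp6v1b2* and the C1 subunit gene *Atp6v1c1* rose under every housing. *Atp6v1a* was expressed at 72.7 ± 12.0 CPM (SD, n = 5) in SPF WT and 120 ± 10.5 CPM (n = 3) in SPF 5xFAD mice, at 80.0 ± 3.55 CPM (n = 4) and 123 ± 8.202 CPM (n = 5) in GF mice and at 71.5 ± 8.49 CPM (n = 5) and 119 ± 19.8 CPM (n = 6) in ABX mice. The groups did not overlap in any housing, and the log2 fold changes were 0.72 ± 0.13 (SE), 0.62 ± 0.12 and 0.73 ± 0.11 (edgeR, adjusted p = 0.000286, 0.000353 and 1.38e-05). *Atp6v1b2* had log2 fold changes of 0.40, 0.59 and 0.55 and *Atp6v1c1* of 0.38, 0.66 and 0.42 in SPF, GF and ABX mice. Without mouse FAD_SPF_1144 neither of these 2 was called in SPF mice (edgeR, adjusted p = 0.253 and 0.0742), nor was *Atp6v1b2* without WT_SPF_912 or WT_SPF_925.

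The small stalk subunit genes *Atp6v1e1*, *Atp6v1f* and *Atp6v1g1* were called in GF mice alone in edgeR, while DESeq2 and the fit with length offsets also called *Atp6v1f* and *Atp6v1g1* in ABX mice. *Atp6v1f* was expressed at 76.4, 61.5, 57.3, 65.7 and 61.7 CPM in SPF WT mice and at 88.1, 67.9 and 73.8 CPM in SPF 5xFAD mice, and these groups overlapped. It stood at 67.7, 79.6, 86.5 and 76.5 CPM in GF WT and at 154, 141, 143, 170 and 117 CPM in GF 5xFAD mice, without overlap. In ABX WT mice it was 77.1, 68.5, 62.9, 65.5 and 68.3 CPM, and in ABX 5xFAD mice it ranged from 61.4 to 123 CPM around a median of 83.0 CPM. Log2 fold changes were 0.25 ± 0.15, 0.90 ± 0.14 and 0.36 ± 0.13 under SPF, GF and ABX conditions (edgeR, adjusted p = 0.548, 4e-05 and 0.0628). *Atp6v1d* and *Atp6v1h*, the latter the regulatory H subunit gene, had log2 fold changes between -0.06 and 0.28 and were not called in edgeR, while DESeq2 called *Atp6v1d* in GF mice (adjusted p = 0.0309).

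In the V0 sector, the gene of the proteolipid ring subunit c, *Atp6v0c*, rose in GF mice by 1.06 ± 0.15 and in ABX mice by 0.67 ± 0.14 on the log2 scale (edgeR, adjusted p = 8.56e-06 and 0.00103), and had a log2 fold change of 0.47 ± 0.16 in SPF mice (adjusted p = 0.106). Its level was 18.6 to 23.6 CPM in SPF WT and 32.7 to 51.8 CPM in GF 5xFAD mice. *Atp6v0e* rose in GF mice (0.78 ± 0.12) and ABX mice (0.35 ± 0.11), *Atp6v0b* in GF mice (0.26 ± 0.08) and *Atp6v0a1*, the gene of a large membrane subunit that couples proton flow to rotation, in ABX mice (0.30 ± 0.08). With library size alone the ABX calls of *Atp6v0e* and *Atp6v0a1* were lost, as they were without WT_ABX_911, WT_ABX_932 or FAD_ABX_1455 for *Atp6v0e* and without WT_ABX_909 for *Atp6v0a1*. The call of *Atp6v0b* was lost with library size alone (0.13, adjusted p = 0.236), with no filter on low counts, with length offsets and without WT_GF_199, WT_GF_231 or FAD_GF_181. Of the exon bases of *Atp6v0b*, 11.8 percent overlap a gene on the opposite strand, and the library kit does not keep the strand. Of the accessory subunit genes, *Atp6ap1* rose in GF and ABX mice (0.45 ± 0.07 and 0.34 ± 0.07), and *Atp6ap2*, the prorenin receptor gene, had log2 fold changes of 0.12, 0.20 and -0.08 and was not called.

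The d subunit of V0 exists in 2 forms, d1, which is made in most cells, and d2, which is known from osteoclasts and other macrophages. *Atp6v0d1* was expressed at 112, 89.6, 91.0, 90.2 and 92.2 CPM in SPF WT and 81.9, 90.9 and 91.3 CPM in SPF 5xFAD mice. In GF mice it was 64.9, 103, 100.2 and 99.9 CPM in WT and 108, 109, 121, 129.6 and 109.7 CPM in 5xFAD mice, the latter all above the former. In ABX WT mice it was 109, 99.8, 100.2, 101 and 83.6 CPM and in ABX 5xFAD mice 82.5 to 105 CPM with a median of 91.4 CPM. Only the GF difference was called (log2 fold change 0.33 ± 0.11, edgeR, adjusted p = 0.0442), and without mouse WT_GF_199, the lowest, it was not. The call was also lost when any 1 of 11 other mice was left out and in 6 of the 10 other settings.

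*Atp6v0d2* (chromosome 4, 19876841 to 19922605, minus strand, GRCm38) was near 0 in WT mice and detected in 12 of 14 5xFAD mice. In WT mice 2 reads were found in 1 of 5 SPF mice, 3 reads in 1 of 4 GF mice and 0 in the 5 ABX mice. SPF 5xFAD mice had 4, 16 and 32 reads, GF 5xFAD mice 44, 0, 43, 72 and 30, and ABX 5xFAD mice 27, 10, 0, 18, 26 and 30. Per mapped read the summed level was 51.3 times that of WT mice under SPF (95% exact interval for counting error 13.5 to 435) and 42.7 times under GF conditions (14.4 to 209). Under ABX conditions it was at least 31.4-fold higher, against a floor of 3 reads over the WT group. edgeR called the gene in all 3 comparisons (adjusted p = 0.0187, 0.00763 and 0.0017), voomWithQualityWeights did not call it in GF and ABX mice, and the SPF call was lost without WT_SPF_912, WT_SPF_928, WT_SPF_936 or FAD_SPF_1148. Mice FAD_GF_182 and FAD_ABX_1453 had 0 reads, although their *Atp6v0d1* levels of 109 and 87.4 CPM lay within their groups. The log2 ratio of d2 to d1 reads, with 0.5 added to both, was higher in 5xFAD mice by 4.62, 3.91 and 4.61 under SPF, GF and ABX conditions, with p = 0.0179, 0.0794 and 0.00649 in exact two-sided permutation tests (adjusted p = 0.0268, 0.0794 and 0.0195 over the 3). The smallest p that 3 against 5 mice can give is 0.0179. As 12 of the 14 WT mice had 0 d2 reads, the size of these differences depends on the 0.5 added and is no measure of the change.

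Of the 13 glycosidase and sulfatase genes, 9 rose in SPF, 9 rose and 1 fell in GF, and 10 rose in ABX 5xFAD mice compared to WT mice. *Gusb*, the β-glucuronidase gene (chromosome 5, 129989011 to 130003049, minus strand, GRCm38), gave among the lowest adjusted p-values of the module. It was expressed at 419, 450, 418, 385 and 387 CPM in SPF WT and at 1012, 873 and 851 CPM in SPF 5xFAD mice. Under GF conditions WT mice had 483, 513, 563 and 486 CPM and 5xFAD mice 1622, 1403, 1360, 1383 and 1042 CPM. Under ABX conditions it was 378, 389, 351, 392.1 and 403 CPM in WT mice and 778 to 1035 CPM in 5xFAD mice, with a median of 880.3 CPM. The genotypes were fully separate in each housing, with log2 fold changes of 1.15 ± 0.10, 1.41 ± 0.10 and 1.25 ± 0.09 (edgeR, adjusted p = 3.02e-09, 1.76e-11 and 2.12e-11).

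*Gla*, which encodes the α-galactosidase A that is lacking in Fabry disease, was expressed at a low level. It stood at 5.18, 3.57, 3.52, 3.75 and 6.50 CPM in SPF WT and 13.4, 9.74 and 9.03 CPM in SPF 5xFAD mice. In GF mice it was 6.45, 3.79, 4.61 and 5.604 CPM in WT and 27.3, 10.8, 9.68, 19.9 and 16.6 CPM in 5xFAD mice, the widest spread among the groups. In ABX mice it was 3.21, 5.09, 4.88, 6.79 and 3.82 CPM in WT and 8.92 to 12.7 CPM in 5xFAD mice, with a median of 10.2 CPM. No WT mouse reached the lowest 5xFAD mouse, and the log2 fold changes were 1.25 ± 0.28, 1.72 ± 0.27 and 1.16 ± 0.24 (edgeR, adjusted p = 0.00508, 3.77e-05 and 0.00129). The SPF call was lost without FAD_SPF_1144 (adjusted p = 0.0729).

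*Glb1*, the β-galactosidase gene, was expressed at 108, 120, 87.7, 96.3 and 97.6 CPM in SPF WT and at 238, 200.4 and 175 CPM in SPF 5xFAD mice. GF WT mice had 125, 113, 121 and 91.9 CPM and GF 5xFAD mice 257, 228.7, 226, 279 and 208 CPM. ABX WT mice had 99.7, 83.4, 96.7, 83.7 and 100.3 CPM and ABX 5xFAD mice 132 to 198 CPM with a median of 160.5 CPM. All 5xFAD mice were above all WT mice of their housing, by 1.01 ± 0.13, 1.09 ± 0.12 and 0.82 ± 0.11 on the log2 scale (edgeR, adjusted p = 1.57e-06, 9.22e-08 and 2.43e-06). *Hexa*, which encodes the α subunit of β-hexosaminidase, had log2 fold changes of 0.98 ± 0.09, 1.29 ± 0.09 and 0.88 ± 0.08, and was expressed at 1147.95 ± 49.0 CPM (n = 5) in SPF WT and 2792 ± 345 CPM (n = 5) in GF 5xFAD mice. Of the exon bases of *Hexa* and *Glb1*, 12.8 and 5.49 percent overlap another gene.

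Among the enzymes of glycosaminoglycan breakdown, *Naglu*, *Galns* and *Gusb* rose while *Sgsh* fell in GF mice and *Ids* and *Idua* were not called in edgeR, while voomWithQualityWeights called *Idua* in ABX mice (0.30, adjusted p = 0.0361). *Naglu*, the gene of an α-N-acetylglucosaminidase that acts on heparan sulfate, was expressed at 198, 248, 235, 219 and 222 CPM in SPF WT and 377, 365 and 328 CPM in SPF 5xFAD mice. GF WT mice had 271, 294, 263 and 258 CPM and GF 5xFAD mice 512, 577, 496, 529 and 422 CPM. For ABX WT mice the levels were 184.01, 166, 143, 217 and 239 CPM and ABX 5xFAD mice 294 to 471 CPM with a median of 386 CPM. The groups did not overlap, with log2 fold changes of 0.67 ± 0.14, 0.90 ± 0.13 and 1.03 ± 0.12 (edgeR, adjusted p = 0.00198, 8.75e-06 and 1.99e-07). *Galns*, a sulfatase gene, stood at 20.9, 19.8, 21.6, 22.1 and 19.8 CPM in SPF WT and at 49.0, 35.4 and 32.7 CPM in SPF 5xFAD mice. It was at 27.4, 27.8, 27.9 and 24.9 CPM in GF WT and 69.8, 58.9, 53.2, 63.5 and 42.1 CPM in GF 5xFAD mice. In ABX mice it was 16.5, 19.96, 19.9, 25.8 and 19.7 CPM in WT and 30.5 to 39.4 CPM in 5xFAD mice, with a median of 34.6 CPM. These groups were separate as well, with log2 fold changes of 0.91 ± 0.15, 1.09 ± 0.14 and 0.78 ± 0.13.

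*Sgsh*, the sulfamidase gene, was the member called lower in edgeR without offsets. It was expressed at 15.9 to 20.3 CPM in GF WT and at 6.54 to 14.2 CPM in GF 5xFAD mice (log2 fold change -0.86 ± 0.19, edgeR, adjusted p = 0.00185). In SPF and ABX mice its log2 fold changes were -0.60 ± 0.21 and -0.26 ± 0.17 and were not called in edgeR, while voomWithQualityWeights called the fall in SPF mice (-0.44, adjusted p = 0.0298). Its exons overlap *Card14* on the opposite strand over 21.6 percent of their bases, so the reads of both genes cannot be fully separated.

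*Fuca1*, the α-fucosidase gene, was expressed at 215, 213, 209, 211 and 206 CPM in SPF WT and at 332, 274 and 255 CPM in SPF 5xFAD mice. GF WT mice had 252, 276, 267 and 277 CPM and GF 5xFAD mice 517, 503, 476, 449.6 and 372 CPM. In ABX mice WT levels were 196, 200.03, 194, 198.5 and 229.3 CPM and 5xFAD levels 260.2 to 458 CPM with a median of 326 CPM. The genotypes did not overlap, with log2 fold changes of 0.44 ± 0.12, 0.79 ± 0.12 and 0.73 ± 0.10 (edgeR, adjusted p = 0.0308, 1.14e-05 and 8.67e-06), and the SPF call was lost when FAD_SPF_1144 or any of WT_SPF_912, WT_SPF_925, WT_SPF_928 and WT_SPF_936 was left out. The mannosidase gene *Man2b1* rose by 0.74, 0.76 and 0.91 in SPF, GF and ABX mice, *Manba* by 0.44 in SPF and 0.37 in ABX mice, and the sialidase gene *Neu1* by 0.44 in GF and 0.42 in ABX mice on the log2 scale.

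Of the 6 genes of lipid hydrolases and lipid transfer, 2 rose in SPF, 4 in GF and 4 in ABX 5xFAD mice. *Npc2* encodes a soluble protein that hands cholesterol to the membrane protein NPC1. It was expressed at 428, 434, 397, 436 and 377 CPM in SPF WT and at 940, 746 and 755 CPM in SPF 5xFAD mice. Levels in GF WT mice were 391, 454, 532 and 431 CPM and GF 5xFAD mice 1332, 1283, 1209, 1274 and 818 CPM, the lowest of them mouse FAD_GF_201. In ABX mice WT levels were 402, 394, 398, 387 and 374 CPM and 5xFAD levels 641 to 878 CPM with a median of 752 CPM. All 5xFAD mice were above all WT mice, with log2 fold changes of 0.97 ± 0.12, 1.39 ± 0.12 and 0.95 ± 0.10 (edgeR, adjusted p = 1.28e-06, 4.18e-10 and 8.96e-08). Its partner gene *Npc1* had log2 fold changes of 0.03 ± 0.09, 0.08 ± 0.09 and -0.05 ± 0.08 and was not called. *Ppt1*, a thioesterase gene mutated in infantile neuronal ceroid lipofuscinosis, rose under all 3 housings (0.39, 0.53 and 0.28), while *Lipa* (0.48 and 0.28) and *Psap* (0.43 and 0.67), the genes of lysosomal acid lipase and of the saposin precursor, rose in GF and ABX mice. With library size alone the ABX call of *Lipa* and the GF call of *Psap* were lost, as they were without WT_ABX_911 and WT_GF_199, respectively. The ceramidase gene *Asah1* and the sphingomyelinase gene *Smpd1* stayed between -0.08 and 0.14 on the log2 scale and were not called.

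*Grn*, the gene of progranulin, and *Tpp1*, the gene of a tripeptidyl peptidase, rose under all 3 housings. *Grn* was expressed at 2314 ± 123 CPM (n = 5) in SPF WT, 2821 ± 130 CPM (n = 4) in GF WT and 2279 ± 253 CPM (n = 5) in ABX WT mice, compared to 3976 ± 80.2 CPM (n = 3), 5139 ± 469 CPM (n = 5) and 4053 ± 371 CPM (n = 6) in the 5xFAD mice of the same housings. Its log2 fold changes were 0.78 ± 0.08, 0.87 ± 0.08 and 0.83 ± 0.07, and those of *Tpp1* were 0.31 ± 0.07, 0.31 ± 0.06 and 0.43 ± 0.06. Of the 6 membrane protein genes, *Lamp1* (0.51, 0.78 and 0.60) and *Lamp2* (0.47, 0.56 and 0.39), which encode the most abundant glycoproteins of the lysosomal membrane, rose under all 3. *Scarb2*, the gene of the transport receptor of β-glucocerebrosidase, rose in GF mice (0.54 ± 0.09), and *Cln3* rose in ABX mice (0.32 ± 0.09), a call lost with library size alone and without WT_ABX_911 or FAD_ABX_1482. The calcium channel gene *Mcoln1* had log2 fold changes of 0.17, 0.05 and 0.06 and was not called.

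**Figure D2:**
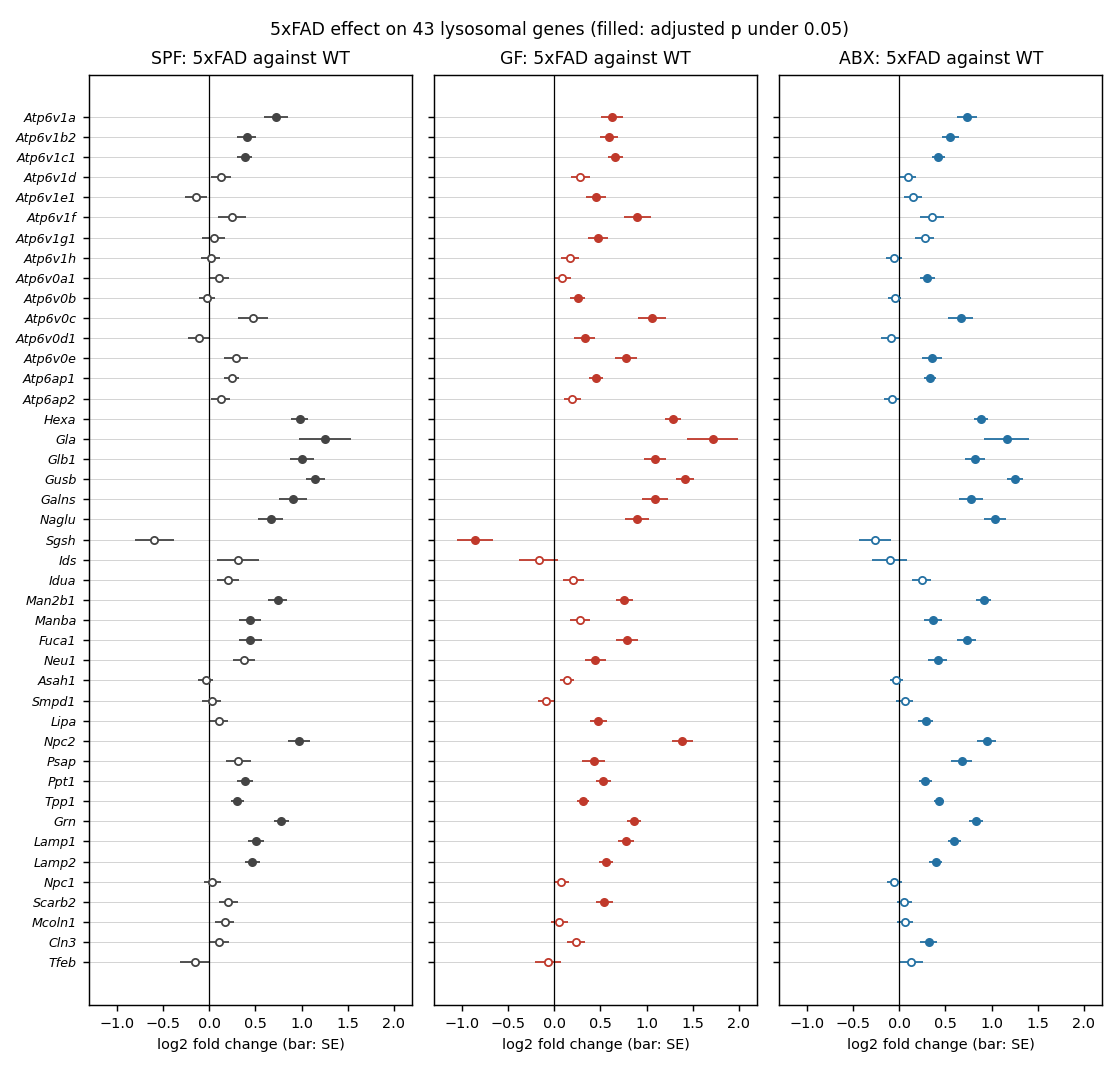
Difference between 5xFAD and WT mice as log2 fold change (horizontal axis, bars are SE) for 43 of the genes under SPF, GF and ABX conditions. Filled points have an adjusted p under 0.05 in edgeR, *Atp6v0d2* is left out because its WT levels were near 0, and *Sgsh* is the filled point below 0.

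**Figure D3:**
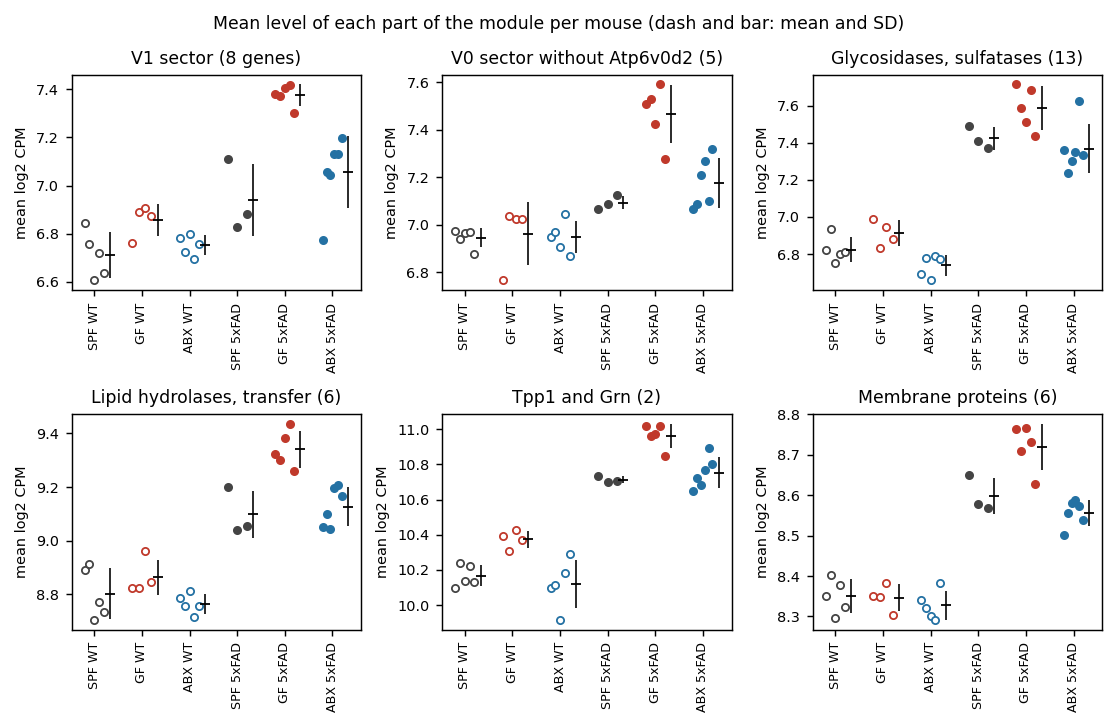
Mean log2 CPM of the genes of each role per mouse (vertical axis), with open points for WT and filled points for 5xFAD mice, and the dash and bar giving mean and SD. The membrane protein genes lie at 8.29 to 8.40 in all WT mice and at 8.50 to 8.77 in all 5xFAD mice, and the V1 genes are highest in GF 5xFAD mice (7.30 to 7.42).

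Among 5xFAD mice, the microglia of GF mice had higher levels of many of these genes than those of SPF mice. In edgeR 19 genes were higher and 1, *Ids*, was lower, where 12.8 percent of all genes were called (6.97 percent higher, 5.86 percent lower), and the median log2 difference of the 44 genes was 0.27 compared to 0.02 for all genes. 10 of the 16 V-ATPase genes were higher, among them *Atp6v1f* (0.92 ± 0.16), *Atp6v1e1* (0.66 ± 0.12), *Atp6v1g1* (0.61 ± 0.12), *Atp6v0e* (0.60 ± 0.13) and *Atp6v0c* (0.59 ± 0.17). The others that were higher are *Fuca1* (0.69 ± 0.13), *Gusb* (0.58 ± 0.11), *Galns* (0.56 ± 0.15), *Npc2* (0.54 ± 0.12), *Naglu* (0.51 ± 0.14), *Lamp1* (0.40 ± 0.09), *Grn* (0.37 ± 0.09), *Lipa* (0.35 ± 0.10) and *Hexa* (0.30 ± 0.09). The values per mouse given above show *Gusb*, *Fuca1* and *Atp6v1f* higher in each of the 5 GF 5xFAD mice than in any of the 3 SPF 5xFAD mice. The count rests on few SPF 5xFAD mice: 7 genes were called without FAD_SPF_1146 and 8 without FAD_SPF_1148. With GC content offsets 18 were called, and *Grn*, *Hexa*, *Galns*, *Naglu*, *Atp6v0b*, *Atp6v0c*, *Atp6v0d1* and *Atp6ap1* were lost.

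*Ids*, the iduronate sulfatase gene, was lower in GF than in SPF 5xFAD mice. It was expressed at 62.3, 58.0, 64.9, 61.9 and 55.2 CPM in GF 5xFAD and 101, 140 and 138 CPM in SPF 5xFAD mice (log2 difference -1.06 ± 0.22, edgeR, adjusted p = 0.00344). GF WT mice had 81.8, 63.3, 61.6 and 64.5 CPM and SPF WT mice 111, 126, 78.6, 104 and 90.7 CPM, which overlap, with a log2 difference of -0.59 ± 0.21 that was not called in edgeR (adjusted p = 0.141) and was called by voomWithQualityWeights (-0.63, adjusted p = 0.0173). ABX WT mice had 105, 119, 141, 74.2 and 98.5 CPM, a log2 difference of 0.66 ± 0.21 from GF WT mice that was not called in edgeR (adjusted p = 0.0554) and was called in 8 of the 10 other settings, DESeq2 and voomWithQualityWeights among them. The ABX 5xFAD mice lay between 58.9 and 149.6 CPM around a median of 85.9 CPM, with 149.6 CPM in FAD_ABX_1151, 147 CPM in FAD_ABX_1460 and 58.9 CPM in FAD_ABX_1482. The last 3 mice named are also those with the highest and lowest slopes of level on gene length given next, and WT_GF_199, the highest GF WT mouse, had a slope of 0.06. The part of these slopes in the level of *Ids* was not tested.

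Gene length moved most with the comparisons that hold GF 5xFAD mice, and less with others. Over all tested genes, divided into 5 groups of like size by summed exon length, the median log2 difference between GF and SPF 5xFAD mice was 0.18, 0.18, 0.04, -0.03 and -0.22 from the shortest to the longest genes. The slope of log2 level on log2 length, relative to the mean library, was -0.06 to 0.01 in GF 5xFAD and -0.00 to 0.04 in SPF 5xFAD mice, and among ABX 5xFAD mice it was highest in FAD_ABX_1460 (0.09) and FAD_ABX_1151 (0.06) and lowest in FAD_ABX_1482 (-0.07). With an offset for the length trend of each library, 13 of the 44 genes were called, among them *Atp6v1h*, which was not called without it (0.47 with the offset, 0.23 without). *Atp6ap1*, *Atp6v0b*, *Atp6v0d1*, *Atp6v1c1*, *Galns*, *Hexa*, *Lipa* and *Naglu* were lost, and *Atp6v1f*, the shortest of the 44 with 1063 bases, *Atp6v1g1*, *Atp6v1e1*, *Atp6v1b2*, *Atp6v0c*, *Atp6v0e*, *Fuca1*, *Gusb*, *Npc2*, *Grn*, *Lamp1* and *Ids* were called with and without the length offset. Within each of the 5 length groups the median of the lysosomal genes was above that of all genes, at 0.61, 0.35, 0.36, 0.13 and 0.04 with 3, 11, 14, 9 and 7 of them. The median of all genes went from 0.11 in the shortest to -0.11 in the longest genes for GF 5xFAD against GF WT mice and from -0.13 to 0.14 for ABX against GF 5xFAD mice, where 8 of the called members were lost with length offsets. For ABX against SPF 5xFAD mice this median went from 0.07 to -0.09, and for GF against SPF WT mice from 0.00 to -0.08.

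**Figure D4:**
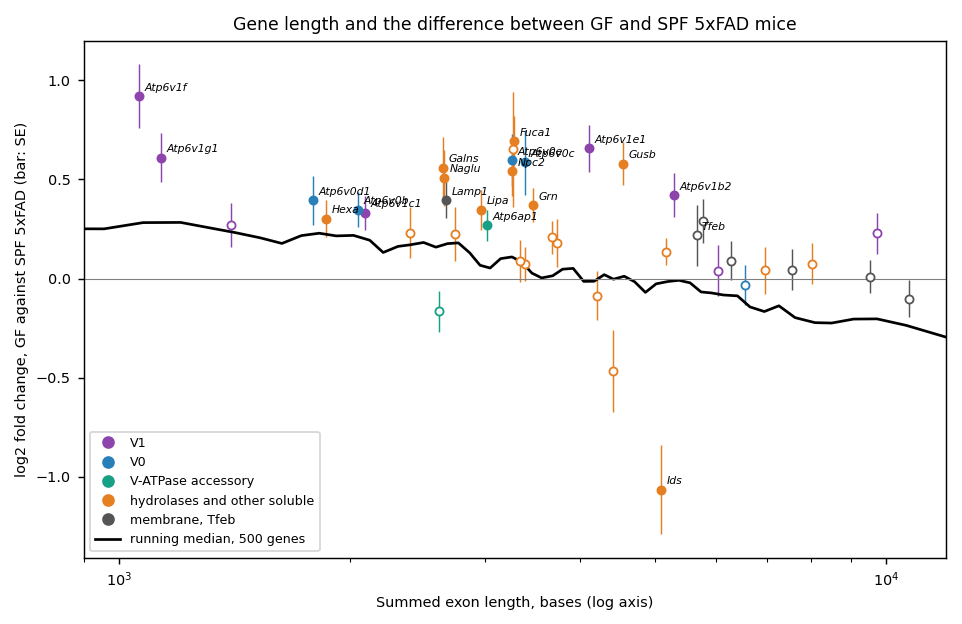
Log2 difference between GF and SPF 5xFAD mice (vertical axis, bars are SE) against summed exon length in bases (log axis) for 43 of the genes, coloured by role, with filled points for an adjusted p under 0.05 in edgeR. The black line is the running median over 500 genes, which falls with length, and most filled points lie above it, with *Ids* far below.

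Between ABX and SPF 5xFAD mice no difference was called in these genes, and many of them were lower in ABX than in GF 5xFAD mice. Compared to SPF 5xFAD mice, 0 of the 44 genes and 0 percent of all genes were called in edgeR, 3 genes and 1085 of all genes had an unadjusted p under 0.05, and DESeq2 and voomWithQualityWeights also called 0 of the 44, with 8 and 134 of all genes called. The median log2 difference was 0.05, compared to 0.01 for all genes. The ABX and SPF 5xFAD mice overlapped for each of the 44 genes, and the share of all genes that overlapped was not counted. Compared to GF 5xFAD mice, 22 genes were lower and 2, *Ids* (0.73 ± 0.19) and *Sgsh* (0.63 ± 0.18), were higher in ABX 5xFAD mice, where 10.6 percent of all genes were called (4.52 percent higher, 6.07 percent lower). This comparison shares the GF 5xFAD mice with that of GF against SPF 5xFAD mice, and the ABX 5xFAD mice with that of ABX against SPF 5xFAD mice. The lower genes included *Atp6v1f* (-0.73 ± 0.13), *Galns* (-0.72 ± 0.12), *Npc2* (-0.65 ± 0.10), *Gusb* (-0.58 ± 0.09), *Glb1* (-0.55 ± 0.11), *Atp6v0e* (-0.50 ± 0.11), *Hexa* (-0.47 ± 0.08) and *Fuca1* (-0.45 ± 0.10). Without FAD_ABX_1151, which also leaves the comparison within 1 numbering style, 14 genes were called, and 15 without FAD_GF_185. With library size alone 13 were called and with no filter on low counts 12. *Ids* was not called without FAD_ABX_1151 (adjusted p = 0.0536), and *Sgsh* was not called without FAD_GF_181 or FAD_GF_184, with 26 mice or in voomWithQualityWeights.

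**Figure D5:**
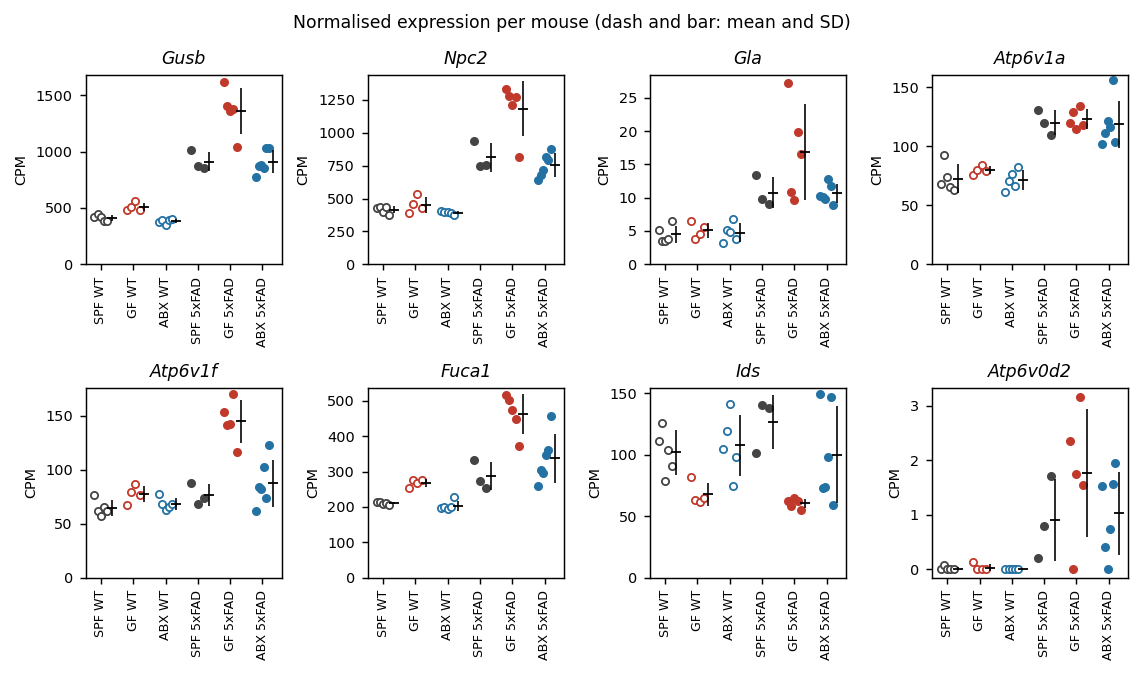
CPM per mouse (vertical axes, starting at or just under 0) for 8 of the genes, with open points for WT and filled points for 5xFAD mice, and the dash and bar giving mean and SD. *Gusb*, *Npc2*, *Gla* and *Atp6v1a* separate the genotypes in each housing, *Atp6v1f* does so in GF mice, and *Ids* is lower in all GF 5xFAD than in all SPF 5xFAD mice.

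In WT mice the housing changed little that could be called. GF compared to SPF WT mice gave 0 of the 44 genes in edgeR, where 1.62 percent of all genes were called (0.869 percent higher, 0.752 percent lower). There 10 of the 44 had an unadjusted p under 0.05, beside 2538 of the 15298 genes tested, DESeq2 called 3 of them and 721 of all genes, and voomWithQualityWeights 5 of them and 1631 of all genes. The smallest adjusted p in edgeR was 0.0566, for *Grn* (0.29 ± 0.08). ABX compared to SPF WT mice gave 0 genes and 0 percent of all genes. Here 1 of the 44 and 687 of all genes had an unadjusted p under 0.05. DESeq2 and voomWithQualityWeights also called 0 of the 44, with 2 and 0 of all genes called. ABX compared to GF WT mice gave 5, where 6.88 percent of all genes were called (2.4 percent higher, 4.48 percent lower). *Naglu* (-0.52 ± 0.13), *Gusb* (-0.42 ± 0.10), *Fuca1* (-0.40 ± 0.11) and *Grn* (-0.31 ± 0.08) were lower, and *Atp6ap2* (0.35 ± 0.10) was higher in ABX mice. *Fuca1* and *Gusb* were lower in each ABX WT mouse than in any GF WT mouse. With a GC content offset none of these 5 was called, and 2 or 3 genes were called when WT_GF_229, WT_GF_230, WT_GF_231, WT_ABX_909, WT_ABX_910 or WT_ABX_911 was left out.

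The tests of whether the 5xFAD effect differed between housings called almost none of the genes. Between GF and SPF mice 0 of the 44 and 0 percent of all genes were called in edgeR, with 13 of the 44 and 1304 of all genes at an unadjusted p under 0.05, 0 of the 44 and 25 of all genes called in DESeq2, and 2 and 116 in voomWithQualityWeights. Between ABX and SPF mice 0 of the 44 were called by all 3 tools, with 0, 1 and 14 of all genes called in edgeR, DESeq2 and voomWithQualityWeights. There 0 of the 44 and 1032 of all genes had an unadjusted p under 0.05. Between ABX and GF mice *Scarb2* was called (difference of log2 fold changes -0.49, edgeR, adjusted p = 0.0419), where 1.76 percent of all genes were called (0.915 percent higher, 0.843 percent lower). *Scarb2* was expressed at 242, 249.2, 269 and 249.9 CPM in GF WT and at 362, 369, 372, 379.8 and 352 CPM in GF 5xFAD mice. ABX WT mice had 246, 294, 342, 269 and 293 CPM and ABX 5xFAD mice 273 to 319.8 CPM with a median of 299 CPM, and SPF mice had 243 to 352 CPM in WT and 319 to 390 CPM in 5xFAD mice. The genotypes were thus separate in GF mice and overlapped in ABX and SPF mice. *Hexa* had a difference of -0.41 that was not called in edgeR (adjusted p = 0.0573) and was called in 5 of the 10 other settings, and voomWithQualityWeights called *Hexa* and *Atp6v1f* and not *Scarb2*. The call of *Scarb2* was lost in 4 of the 10 other settings and in 14 of the 28 fits with 1 mouse left out (WT_SPF_928, WT_GF_199, WT_GF_229, WT_GF_231, WT_ABX_910, WT_ABX_911, FAD_SPF_1146, FAD_SPF_1148, FAD_GF_181, FAD_GF_182, FAD_GF_184, FAD_GF_185, FAD_ABX_1452 and FAD_ABX_1453).

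Other lysosomal genes were also examined, 74 of 81 listed ones being expressed enough to be tested. 13 of them rose and 2 fell in SPF 5xFAD compared to WT mice, 24 rose and 9 fell in GF and 24 rose and 2 fell in ABX mice. Of all genes tested, 3.73, 9.43 and 9.45 percent rose and 0.837, 6.2 and 4.98 percent fell in these comparisons. Of 28 other hydrolase and cofactor genes, 8, 14 and 13 rose and 1, 4 and 0 fell, the lowest F test values belonging to the phospholipase-like gene *Pld3* (log2 fold changes 1.11, 1.42 and 1.35), *Scpep1* (0.58, 0.86 and 0.84) and the acid α-glucosidase gene *Gaa* (0.70, 0.68 and 1.15). Of 20 other membrane protein genes, 3, 6 and 6 rose and 1, 2 and 2 fell, among them the tetraspanin gene *Cd63* (1.45, 2.07 and 1.59), the macrophage marker gene *Cd68* (0.77, 1.09 and 0.95) and *Mfsd12* (0.83, 1.03 and 1.32). Of 5 tested other subunit genes, which replace a listed subunit in certain tissues or organelles, *Atp6v0e2* rose (2.84 ± 0.90) and *Atp6v0a2* fell (-0.51 ± 0.12) in GF mice, *Atp6v1g2* was not called, and of 9 assembly factor genes 0, 0 and 1 rose, with *Vma21*, *Dmxl1* and *Dmxl2* between -0.46 and 0.26 and not called. *Atp6v0e2* had an average log2 CPM of 0.24, so that its fold change rests on few reads. Of 12 genes of TFEB relatives and of mannose 6-phosphate sorting, 2, 3 and 4 rose and 0, 2 and 0 fell. The phosphotransferase genes *Gnptab* (1.16, 0.90 and 0.89) and *Gnptg* (0.45, 0.85 and 0.52), whose enzyme tags hydrolases for the lysosome, rose under all 3 housings, and *Gga2* rose in GF and ABX mice (0.50 and 0.72).

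Per kilobase of exon length, the 44 genes spanned a wide range of levels. Over all mice *Grn* (989 CPM per kilobase), *Psap* (977) and *Hexa* (930) were highest, each with ranges over the mice that overlapped the next and in an order that differed between groups, followed over all mice by *Lamp1* (708) and, at a distance, *Atp6v0b* (276). In SPF WT mice *Psap* (836) stood above *Grn* (666) and *Hexa* (616), and in GF 5xFAD mice *Hexa* (1497) and *Grn* (1479) stood above *Psap* (1215) in mean CPM per kilobase. *Tfeb* stood at 9.47, *Sgsh* at 3.62, *Gla* at 2.702 and *Atp6v0d2* at 0.236 CPM per kilobase. Within V0, *Atp6v0d1* (54.5) was thus expressed far above *Atp6v0d2* in level per kilobase, in 5xFAD mice as well, where the group means were 49.1, 64.5 and 51.5 for *Atp6v0d1* and 0.335, 0.651 and 0.380 for *Atp6v0d2* under SPF, GF and ABX conditions.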

How the data were processed

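Per the study's methods and the labels, the authors made libraries from the RNA of sorted microglia with the SMARTer v4 and Nextera XT kits, which do not keep the strand, converted reads with CASAVA 1.8.2, checked them with FastQC 0.11.8, aligned them to GRCm38 with STAR 2.7.2 and counted them with featureCounts 1.6.2 on GENCODE M21. The deposited values are raw read counts per gene from the authors, without normalization. The submitters' processing notes also name limma 3.40.6, edgeR 3.26.7 and a human build, and the methods name the mouse build. Groups were taken from the titles. The members and gene lists were chosen with earlier results of these data known.

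From these counts, 92 spike-in entries with at most 12 reads in a library were left out. Genes were kept by filterByExpr (minimum count 10, minimum total 15), scaled by TMM and tested with the quasi-likelihood test of edgeR 4.0.16 in R 4.3.3, with 1 term per group over all 28 mice. CPM values were scaled by TMM, other than the sums of cell type markers, and log2 CPM used a prior count of 2. SE values come from the fold change and its F statistic. Intervals cover counting error only. No mice were labelled as litters, so p-values measure the spread between the mice sequenced. No replicate pair agreed within sampling noise (lowest chi-square per degree of freedom 6.92). Exon lengths are those of the deposited table. Values per mouse are given for the 4 called members with the largest change in each comparison of 5xFAD with WT mice, the 3 such members in other comparisons, *Atp6v0d1*, *Atp6v0d2* and *Tfeb*; of other lysosomal genes the 3 with the lowest F test p in each list are named, and further members were named by counts and fold changes.

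Alternatives were RLE size factors, library size alone, no filter on low counts, at least 10 counts in every library, DESeq2 1.42.0, voomWithQualityWeights of limma 3.58.1 (the study's test), gene length offsets, 26 mice without FAD_ABX_1151 and FAD_ABX_1482, and each mouse left out. GC content offsets and voomWithQualityWeights on the 26 mice were chosen after seeing the data. The test was checked on simulated data. matplotlib 3.10.9 under Python 3.11.15 drew the figures.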

Additional observations from a re-analysis of the deposited data

Results flagged for a closer look

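In 69 groups of 4 to 6 mice (13 genes with values per mouse and the mean of the 44 genes), 9 held a mouse whose gap to its nearest neighbour passed Dixon's critical value, where chance gives about 1 in 20. For *Atp6v0d2* in SPF and GF WT mice all other mice were tied at 0 reads, so that any read passes there and the chance rate does not apply. *Atp6v0d2* stood out in WT_SPF_925 (log2 CPM -2.51, the others at -3.33), in WT_GF_199 (-2.10, the others at -3.33), which had 2 and 3 reads against 0, and in FAD_GF_182 (-3.33, with 0 reads, the others at 0.73 to 1.71). *Npc2* was low in FAD_GF_201 (9.68 against 10.24 to 10.38), the mouse with conflicting labels. *Ids* was high in WT_GF_199 (6.36 against 5.95 to 6.01), *Fuca1* high in WT_ABX_932 (7.84 against 7.60 to 7.64) and *Galns* low in WT_GF_231 (4.64 against 4.78 to 4.81). *Atp6v0d1* was high in WT_SPF_912 (6.81 against 6.49 to 6.53) and low in WT_GF_199 (6.02 against 6.64 to 6.69). The 5xFAD effect on *Scarb2* differed between ABX and GF mice by -0.49 on the log2 scale (edgeR, adjusted p = 0.0419, 0.0096 to 0.109 over the alternatives), being higher in 5xFAD mice in 5 of 5 GF mice and overlapping in ABX mice.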

How the results depend on the processing

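Of the 127 called pairs of a gene and a comparison, 76 were called with the same sign under all 38 alternatives, and over all pairs and alternatives 4514 values kept sign and call, 309 lost the call and 0 changed sign. Of the pairs not called, 15 were called with DESeq2, 16 with GC content offsets, 27 with voomWithQualityWeights and 39 with it on 26 mice, and 1 to 10 in each of the other 6 settings. *Atp6ap1* and *Neu1* in SPF 5xFAD against WT mice were among those called by both DESeq2 and voomWithQualityWeights. The 5xFAD counts stayed within 1.5 times of the values given, with 19 to 25 genes in SPF, 28 to 33 in GF and 23 to 29 in ABX mice over the 10 other settings. Over the same settings 582 to 2180 of all genes were called in SPF mice (699 in the main fit). In GF mice 2117 to 3026 of all genes were called (2391) and in ABX mice 1856 to 2552 (2207). The following counts of called genes moved by more. GF against SPF 5xFAD mice gave 13 with gene length offsets (20 given), where 1380 of all genes were called (1962 in the main fit). ABX against SPF 5xFAD mice gave 3 with voomWithQualityWeights on 26 mice (0 given), where 552 of all genes were called (0 in the main fit). ABX against GF 5xFAD mice gave 13 with library size alone and 12 with no filter on low counts (24 given), where 1727 and 1308 of all genes were called (1621 in the main fit). GF against SPF WT mice (0 given) gave 1 with RLE size factors, 1 with library size alone, 3 with DESeq2, 5 with voomWithQualityWeights, 3 with 26 mice and 7 with voomWithQualityWeights on 26 mice. In that order 266, 234, 721, 1631, 659 and 1735 of all genes were called (248 in the main fit). ABX against GF WT mice (5 given) gave 9, 10, 1 and 11 with DESeq2, voomWithQualityWeights, GC content offsets and voomWithQualityWeights on 26 mice. These settings called 1618, 2025, 232 and 2052 of all genes (1053 in the main fit). The difference in 5xFAD effect between GF and SPF mice (0 given) gave 2 and 5 with voomWithQualityWeights on 28 and 26 mice, where 116 and 215 of all genes were called (0 in the main fit). That between ABX and GF mice (1 given) gave 0 with library size alone, 0 with no filter, 2 with at least 10 counts in every library, 2 with DESeq2, 2 and 2 with voomWithQualityWeights on 28 and 26 mice, and 3 with GC content offsets. In that order 278, 234, 313, 576, 281, 296 and 248 of all genes were called (269 in the main fit). The cause was not tested. Library size alone, which shifts the median of all genes in GF 5xFAD against WT mice from -0.03 to -0.15, moved the mean difference of the 44 genes from 0.58 to 0.46 in GF and from 0.45 to 0.38 in ABX 5xFAD against WT mice, from 0.25 to 0.16 in GF against SPF 5xFAD mice and from -0.24 to -0.15 in ABX against GF 5xFAD mice.

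With each mouse left out in turn, counts ranged from 13 to 20 for SPF, 28 to 32 for GF and 25 to 29 for ABX 5xFAD against WT mice, from 7 to 21 for GF against SPF 5xFAD, 14 to 24 for ABX against GF 5xFAD, 0 to 2 for GF against SPF WT (2 without FAD_ABX_1482, and 1 without WT_ABX_911, WT_ABX_923, WT_ABX_932, FAD_GF_201, FAD_ABX_1151 or FAD_ABX_1460) and 2 to 7 for ABX against GF WT mice, from 0 to 3 for the difference in 5xFAD effect between ABX and GF mice (3 without FAD_GF_201, and 2 without WT_GF_230, FAD_SPF_1144, FAD_ABX_1460 or FAD_ABX_1482), and from 33 to 38 for the F test. Without FAD_GF_201, 32 genes were called in GF 5xFAD against WT mice. The d2 to d1 ratio ranged from 3.99 to 5.33 in SPF mice, where leaving out a 5xFAD mouse gave an adjusted p of 0.0714 in the exact permutation test, at the smallest unadjusted p that 2 against 5 mice allow, and from 3.4767 to 5.1999 in GF mice, where it passed without FAD_GF_182 (adjusted p = 0.0286). No paired analysis was possible because each number in the labels names 1 mouse and no number is shared between groups. The 3 SPF 5xFAD mice limit the comparisons they enter, and the few reads of *Atp6v0d2* limit its fold changes.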
